A study of Homo sapiens with 14 samples.

Results

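MER11A, MER11B, MER11C and MER11D are groups of long terminal repeats (LTRs) of endogenous retroviruses, and HERVK11-int is the internal part that LTRs of MER11A, MER11B and MER11C flank. The MER11D proviruses named below hold HERVK11D-int in its place. Of the 4570939 transposable element (TE) integrants listed for each bulk RNA-seq library, 2523 were taken, with no use of their reads. Their names hold at least one of MER11A, MER11B, MER11C, MER11D and HERVK11-int, the 5 subfamily names used here. They comprised 916 integrants named MER11A, 523 named MER11B, 847 named MER11C, 227 named MER11D and 134 named HERVK11-int, and an integrant with a joined name counted for each of its names. Most were LTRs without internal sequence (2358), whereas 137 joined an LTR to internal sequence, 28 held internal sequence alone, and 61 had an LTR at both ends, as a provirus does.

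The 12 bulk libraries came from H9, an established human embryonic stem cell (hESC) line, and fell into 5 groups. Undifferentiated hESC, grown in mTSER Plus on Matrigel, gave 2 libraries. Endoderm (DE) was made with 100 ng/ml Activin A for 3 days together with CHIR-99021, an inhibitor of GSK-3 that activates WNT signaling, at 5 μM on the first day and 0.5 μM on the second. All endoderm cells expressed dCAS9-KRAB, a Cas9 without nuclease activity fused to the KRAB repressor domain, either without an sgRNA (3 libraries) or with an sgRNA designed on the consensus of LTR5B, an LTR of the HERVK (HML-2) family (3 libraries). By the methods of the study, hESC received dCAS9-KRAB and were selected with puromycin before differentiation. The methods do not say whether the undifferentiated hESC libraries came from such cells. If not, dCAS9-KRAB and differentiation cannot be told apart in comparisons with hESC. Foregut was made by 3 days of endoderm differentiation and then 3 days of foregut differentiation. Foregut (FG) libraries were titled as control (2 libraries) or CRISPRi (2 libraries) and are called foregut without and with the sgRNA here. Their other labels went against these titles, since the controls were described as hESC in hESC medium and the CRISPRi libraries as endoderm without sgRNA. TTR, a carrier protein of the liver and its precursors, was at 1453 to 2050 counts per 1000000 gene reads (CPM) in the 4 foregut libraries and at 0 in all hESC and endoderm libraries, and NANOG, a pluripotency factor, was at 0 to 0.06 CPM in foregut against 27.9 and 50.8 CPM in hESC. The 5 foregut markers HHEX, HNF4A, ONECUT1, PROX1 and TTR summed to 1533 and 2108 CPM in foregut without the sgRNA. With the sgRNA they summed to 1696 and 1753 CPM. Most of each foregut sum was TTR. In endoderm, where TTR was at 0, the same list summed to 70.0 to 79.6 CPM without the sgRNA and 44.2 to 83.8 CPM with it. The marker evidence for foregut thus rests mainly on TTR. The 5 pluripotent markers, NANOG among them, summed to 938 to 1420 CPM in hESC. In foregut they were lower but not absent, at 167 to 192 CPM without the sgRNA and 154 to 254 CPM with it. The methods of the study call its RNA-seq replicates biologically independent, and no label says how the cultures were kept apart, so p-values measure the spread between these libraries.

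LTRs carry the promoter and the polyadenylation signal of a retrovirus, and recombination between the LTRs of a provirus leaves a solo LTR in the genome. LTRs of MER11A, MER11B and MER11C belong to HERVK11, also called HML-8, a family that entered the genome of primates and no longer makes virus. In early embryonic cells, KRAB zinc finger proteins recruit TRIM28 and SETDB1 to such sequences and silence them, while tissue-specific transcription factors can turn LTRs into promoters or enhancers.

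The LTR groups differed in words that developmental transcription factors are known to read. For each solo LTR in which it could be placed, the 300 bases that end 20 bases past the polyadenylation signal AATAAA were read from GRCh37, which gave 542 windows of MER11A, 352 of MER11B and 623 of MER11C. Words were searched on both strands, and none contains another. They were those of GATA factors (AGATAA or TGATAA), of T-box factors such as EOMES (AGGTGT), of SOX factors (CATTGT), of FOX factors (TGTTTAC) and the octamer read by POU5F1 (ATGCAAAT).

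A GATA word stood in 95.0% of MER11A, 89.8% of MER11B and 96.8% of MER11C windows, against 16.3% of 35116 promoters of the same length (RefSeq, GRCh38.p14). The SOX word was found in 18.3% of MER11A, 81.8% of MER11B and 80.3% of MER11C windows and in 10.8% of promoters. The T-box word was found in 42.9% of MER11C windows but in 4.06% of MER11A and 2.84% of MER11B windows, against 11.4% of promoters. FOX words (0.321 to 1.66%) and the octamer (0 to 0.284%) were rarer in all LTR groups than in promoters (3.42% and 1.77%). These shares describe letters and say nothing of binding.

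Few of these integrants were transcribed at a detectable level. Over all 12 libraries 310 of 2523 (12.3%) had a read, against 254621 of all TE integrants (5.57%), 2213 had none, 140 had only 1 or 2 reads, and 103 had 10 or more. The libraries held between 11583063 and 37152434 gene reads, and all members together 16115 reads. Reads were found for 12.0% of integrants made of LTR only and for 27.9% of those with an LTR at both ends, which are longer (medians of 1061 and 7038 bases). Integrants with a read numbered 146 in hESC, 169 and 180 in endoderm without and with the sgRNA, and 66 and 36 in foregut without and with it. Foregut counts were clumped: the commonest TE count of 2 or more was 9, 9, 11 and 26 in the 4 foregut libraries and 2 in all others, and 8.34 to 11.6% of TE integrants with reads held 1 to 3 reads there, against 80.9 to 90.4% elsewhere. A count of 0 in foregut therefore says less than a count of 0 in the other libraries. As a floor, 3 reads over the group were taken for hESC and endoderm, and 3 clumps, or 27 and 78 reads, for foregut without and with the sgRNA.

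Summed per subfamily, MER11C and HERVK11-int stood out in endoderm, and MER11A in foregut. Levels are given as RPM, the reads of an integrant or subfamily per 1000000 gene reads of the library. MER11C reached 111, 82.1 and 103 RPM in endoderm without the sgRNA, from 18.9 and 20.3 in hESC, and came to 11.5 and 10.98 in foregut without the sgRNA. HERVK11-int went the same way, with 96.3, 72.3 and 88.8 in endoderm, 13.0 and 14.8 in hESC, and 4.87 and 4.74 in foregut. In bulk RNA, fewer cells of a type and less RNA per cell cannot be told apart. The sums share reads, because an integrant that joins MER11C to HERVK11-int counts for both.

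MER11A was at 4.42 and 5.19 RPM in hESC and at 4.27, 3.85 and 3.91 in endoderm, then at 20.01 and 12.8 in foregut. MER11B came to 2.76 and 1.86 in hESC, 2.59, 2.79 and 2.87 in endoderm, and 7.08 and 5.30 in foregut. MER11D was low throughout, with 1.02 and 1.46 in hESC, 2.80, 2.09 and 2.32 in endoderm, and 0.797 and 0.108 in foregut. Libraries of endoderm without the sgRNA lay above both hESC libraries for MER11C, HERVK11-int and MER11D and below them for MER11A, those of MER11B overlapped, and foregut without the sgRNA lay above all endoderm libraries for MER11A and MER11B.

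**Figure D1:**
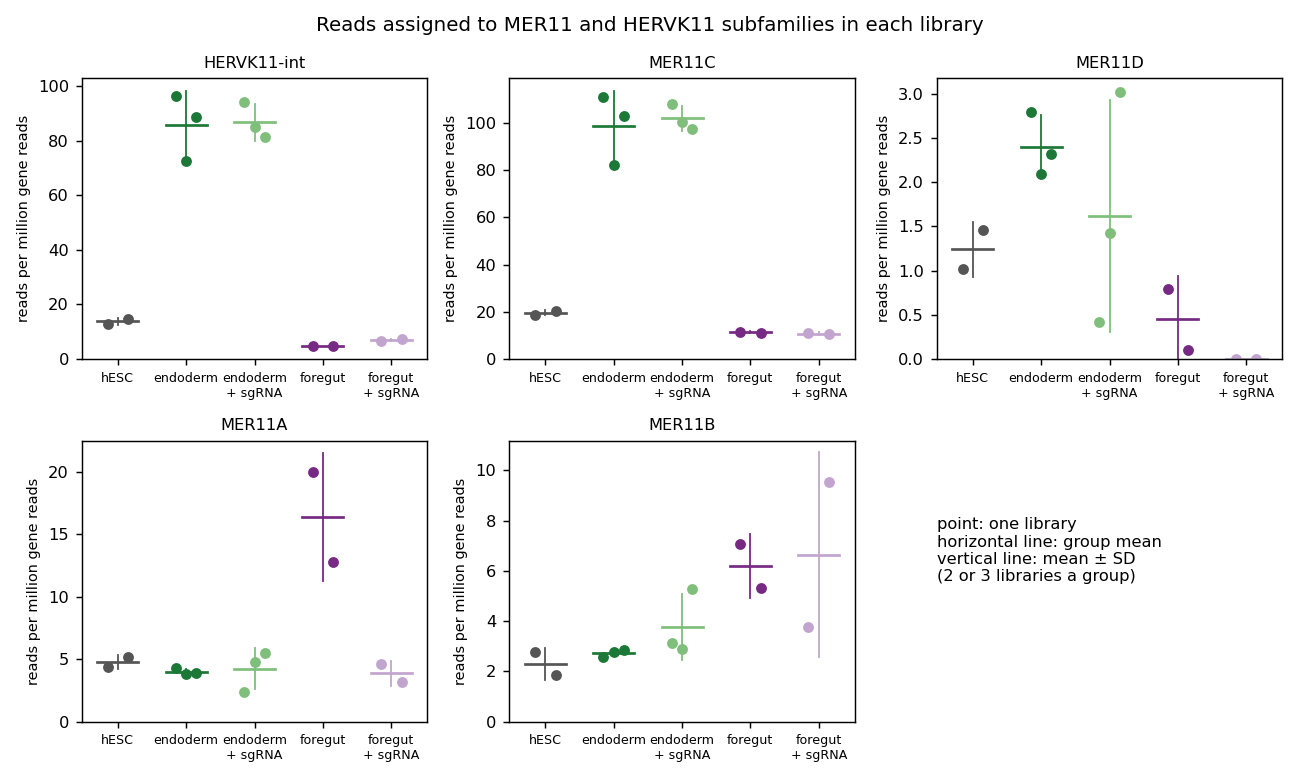
Reads assigned to each subfamily in each library, in RPM, by group on the x axis. Points are libraries and bars are group means. MER11C and HERVK11-int are highest in the 6 endoderm libraries, and MER11A in the 2 foregut libraries without the sgRNA.

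Against hESC, endoderm without the sgRNA had higher sums for 3 of the 5 subfamilies, where 18.4% of all 1065 subfamily names tested were called at an adjusted p under 0.05 (10.5% higher). HERVK11-int rose by 2.70 ± 0.26 on the log2 scale (SE), MER11C by 2.41 ± 0.26, and MER11D by 1.03 ± 0.36 with an adjusted p of 0.0495 (edgeR's quasi-likelihood test with Benjamini-Hochberg adjustment). The call for MER11D was lost when any endoderm library was left out (adjusted p 0.0737 to 0.119 in the same edgeR test). MER11A differed by -0.18 ± 0.29 (adjusted p = 0.69, edgeR) and MER11B by 0.31 ± 0.33 (adjusted p = 0.56, edgeR). Between the same libraries the 4 primitive streak markers went from at most 6.80 CPM to between 1375 and 1701 CPM, the 4 mesoderm markers from at most 0.680 CPM to between 19.2 and 40.4 CPM, and the mitochondrial share of gene reads from 25.5 and 16.9% to between 8.30 and 14.4%. The part of cell composition was not tested, and without mitochondrial genes in the library sizes MER11C rose by 2.41 and HERVK11-int by 2.70. When integrants with joined names were left out, MER11D differed by -0.86 and HERVK11-int by -2.74, since most reads of both lie in integrants that join LTR and internal sequence.

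A handful of loci held most reads of these sums, less so for MER11A. Averaged over the 5 groups, 2 integrants held over 50% of the HERVK11-int reads and 6 held 90%, and for MER11C it took 2 and 17 of 847. The 4 leading integrants held 84.6% of HERVK11-int, 69.3% of MER11C, 94.5% of MER11D, 56.0% of MER11B and 46.5% of MER11A. The same 4 integrants led MER11C and HERVK11-int, and without them the mean of endoderm was 2.19 times that of hESC for MER11C (5.04 times with them) and 2.08 times for HERVK11-int (6.18 times with them). Without the 10 leading integrants of each, endoderm was at 1.92 times the hESC level for MER11C and at 0.683 times for HERVK11-int. The leaders were chosen on these reads, so the smaller ratios are descriptions. Shares also differed by group: the 4 highest integrants within the group held 78.4% of MER11C in endoderm without the sgRNA and 44.8% in foregut without it.

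**Figure D2:**
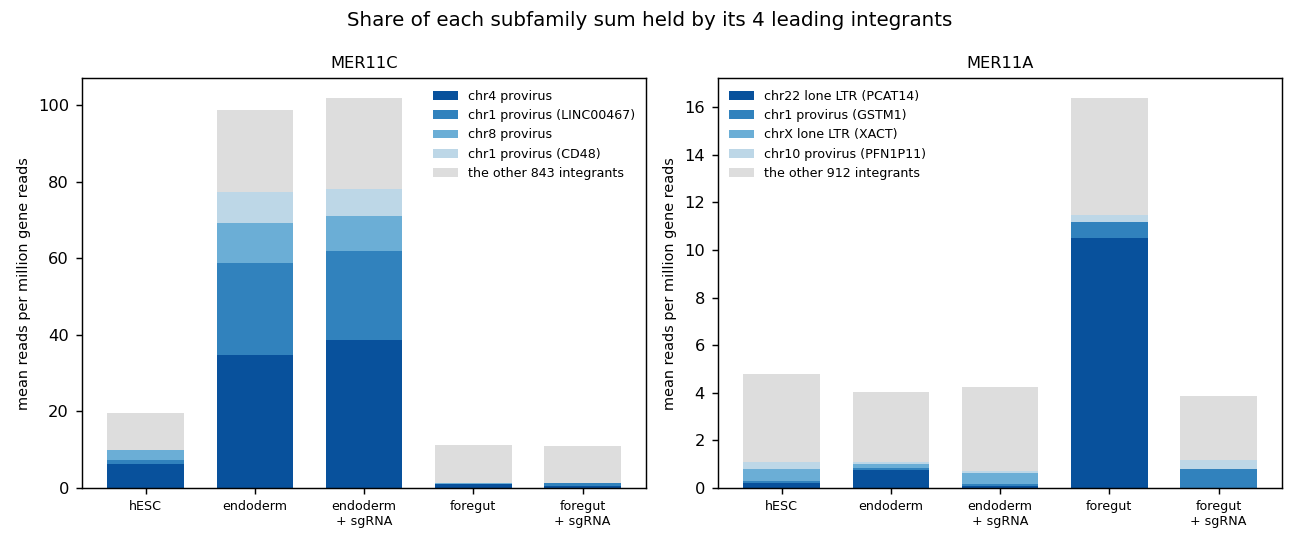
Mean RPM of MER11C and MER11A in each group, as bars stacked by the 4 integrants that lead the subfamily over all groups and, in grey, all its other integrants. The 4 leaders hold 69.3% of MER11C and 46.5% of MER11A, and 1 integrant holds most of MER11A in foregut without the sgRNA.

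The provirus chr4:4043850-4050887 led all members in the mean over the 5 groups, in hESC and in endoderm, but not in foregut. It is a MER11C provirus of 7038 bases on the minus strand, and the gene of the long noncoding RNA (lncRNA) ENSG00000290888, also on the minus strand, ends inside it. The nearest start of a coding gene is that of OTOP1, 178 kb away. It held 138 and 142 reads in hESC, 868, 507 and 598 in endoderm without the sgRNA, 725, 745 and 400 with it, 32 and 28 in foregut without the sgRNA, and 36 and 0 with it. This was 6.08 ± 0.31 RPM in hESC (SD, n = 2) and 34.7 ± 10.4 in endoderm without the sgRNA (SD, n = 3), and it made up 31.0% of MER11C in hESC and 35.2% in endoderm. Every endoderm library was above both hESC libraries, and every foregut library was below all others.

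The next leader, chr1:211572062-211574167, joins a MER11C LTR to internal sequence on the plus strand within LINC00467, a lncRNA gene of the same strand, and both a transcript start and a transcript end of that gene lie inside it. Its counts were 20 and 37 in hESC, 546, 468 and 374 in endoderm without the sgRNA, 457, 434 and 234 with it, 0 and 8 in foregut without the sgRNA, and 37 and 0 with it. LINC00467 itself was at 1.10 and 2.75 CPM in hESC and at 20.4 to 24.1 CPM in endoderm without the sgRNA. The gene and the LTR moved together, and as they share exon sequence their reads cannot be told apart with certainty.

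The integrant chr1:160656346-160660574, also of MER11C and internal sequence, is in CD48 on the strand of that gene, which encodes a surface receptor of immune cells. Neither hESC library nor any foregut library held a read of it, against 115, 219 and 146 in endoderm without the sgRNA and 86, 159 and 93 with it. Endoderm without the sgRNA was at least 128-fold higher than the floor of 3 reads over the hESC group. CD48 was likewise at 0 CPM in both hESC libraries and in all foregut libraries, and at 72.6, 101 and 120 CPM in endoderm without the sgRNA. The integrant overlaps an exon of the antisense lncRNA ENSG00000228863 (at most 0.610 CPM in endoderm without the sgRNA), so it was left out of the main integrant test and is given from a fit that kept such integrants.

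Further proviruses of this kind lie on chromosome 8. The one at chr8:7010302-7017357 held 50 and 66 reads in hESC and 163, 220 and 201 in endoderm without the sgRNA. At chr8:12388514-12395551 the counts were 37 and 24 in hESC, then 90, 47 and 65, and at chr8:7985163-7992200 they were 10 and 14, then 42, 58 and 33. The latter pair was identical over 99.7% of 7039 aligned bases, and chr8:7010302-7017357 was 97.3% identical to both. The provirus on chromosome 4 was 95.7 to 96.0% identical to the 3 on chromosome 8. As the counts are of uniquely mapped reads, reads from stretches shared by these copies were not counted, to an extent that may differ between the 4 proviruses. Exons of lncRNA genes in GENCODE overlap chr4:4043850-4050887, chr8:7010302-7017357 and chr8:12388514-12395551. Their counts may therefore also include reads of those transcripts. Within a provirus, the 2 LTRs were 95.7% identical on chromosome 4 and 96.4 to 96.7% on chromosome 8.

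Solo LTRs of MER11C were among the higher loci too. The LTR chr21:47395550-47396620, 5064 bp from the start of COL6A1, a collagen chain gene, held 12 and 4 reads in hESC and 82, 32 and 49 in endoderm without the sgRNA. COL6A1 was at 159 and 167 CPM in hESC and at 1136 to 1466 CPM in endoderm without the sgRNA. At chr8:12340362-12341426 there was no read in hESC and 31, 13 and 18 in endoderm without the sgRNA, which is at least 16.8-fold over the hESC floor. The MER11C LTRs chr1:55389716-55390705 (9, 7 and 12 reads) and chr7:36016068-36017131 (10, 9 and 8 reads) were also seen in endoderm without the sgRNA and in no hESC library.

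**Figure D3:**
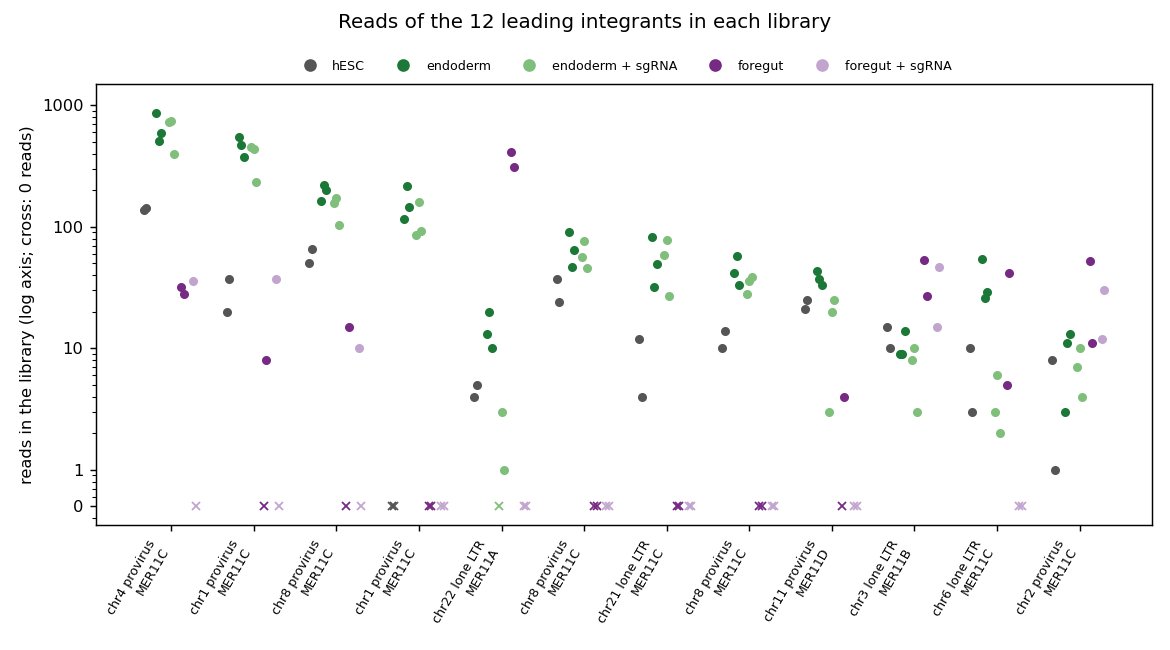
Reads of the 12 leading integrants in each library, on a log axis with 0 drawn below 1. Colours are groups and points are libraries. The leading MER11C loci are highest in endoderm, and the MER11A LTR on chromosome 22 is highest in foregut without the sgRNA.

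Tested one by one between endoderm without the sgRNA and hESC, 13 of 77 member integrants were called (12 higher, 1 lower; 16.9%), where 4.17% of all 32490 integrants tested were called (2.91% higher and 1.27% lower). A call needed a change of more than 2-fold with an adjusted p below 0.05. Of the 2523 members, 2287 had no read in these 5 libraries, 146 stayed under the filter of 3 reads in a library, and 13 of the 90 others overlap exons and were left out. As members mostly pass the filter through the group in which they are high, the share among those tested does not extend to all members. MER11C had 10 of 39 called, all higher, and HERVK11-int 4 of 9, against 1 of 21 for MER11A, 1 of 12 for MER11B and 1 of 4 for MER11D. The median log2 fold change was 0.56 over the members tested and -1.34 over all integrants tested.

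Fold changes of the leaders were 2.59 ± 0.41 for chr4:4043850-4050887 on the log2 scale (SE; adjusted p = 2.8e-08), 2.11 ± 0.44 for chr8:7010302-7017357 (adjusted p = 0.000119) and 2.19 ± 0.58 for chr8:7985163-7992200 (adjusted p = 0.00546), all by edgeR's quasi-likelihood test. The provirus chr8:12388514-12395551 missed the threshold at 1.49 (adjusted p = 0.0596, edgeR). With exons of all GENCODE genes, a setting chosen after seeing the data, 8 members were called, and chr4:4043850-4050887, chr8:7010302-7017357 and the LTRs on chromosomes 7 and 21 were among those left out, since lncRNA exons overlap them. In the fit that kept exon-overlapping integrants, chr1:211572062-211574167 rose by 4.36 ± 0.46, and 17 of 90 members were called against 4.56% of all integrants. The only fall was at chrX:97763109-97763684, a MER11A integrant that held 19 and 13 reads in hESC and 1, 2 and 2 in endoderm (-2.84 ± 0.92, adjusted p = 0.0482, edgeR). Integrants with fewer reads rose at chr8:8039266-8040332 (2 and 1 reads in hESC, 13, 10 and 18 in endoderm), chr4:88810035-88811080, a MER11B LTR (0 and 0, then 11, 6 and 5), and chr2:171472170-171475960, a MER11D element in MYO3B (0 and 0, then 9, 6 and 3). The MER11C LTRs chr8:8039266-8040332 and chr8:12340362-12341426 were 99.4% identical over 1065 aligned bases. Reads from stretches shared by these LTRs were not counted, to an extent that may differ between them. The rise of chr3:130162834-130172248 rested on 1 library, with 17, 0 and 1 reads in endoderm.

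**Figure D4:**
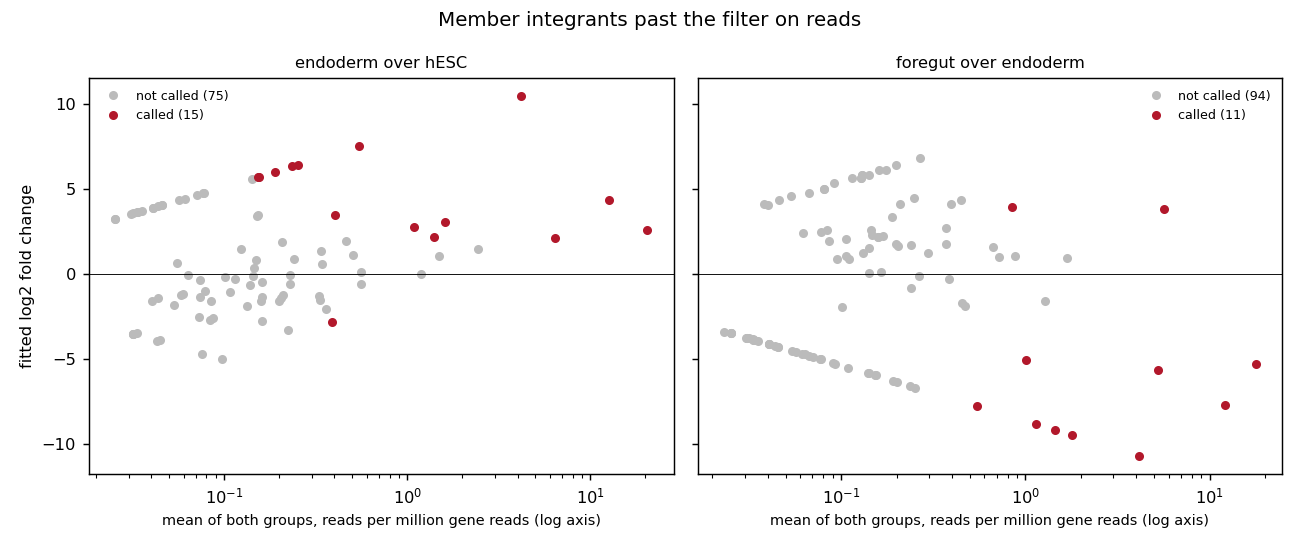
Fitted log2 fold change of each member integrant past the filter against its mean level, in RPM on a log axis, for the comparisons of groups. Coloured points are called integrants, and the slanted lines of points are integrants with 0 reads in one group. Calls against hESC lie mostly above 0, and those of foregut against endoderm mostly below.

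From endoderm to foregut, both without the sgRNA, the MER11C sum went down and the MER11A sum went up. The foregut libraries were deposited later than the others and may be another batch. This comparison cannot tell such a batch apart from the stage. All 5 sums passed the test, where 32.7% of all subfamily names did (25.2% higher and 7.51% lower): HERVK11-int fell by 4.15 ± 0.35 on the log2 scale, MER11C fell by 3.12 ± 0.33 and MER11D fell by 2.36 ± 0.75, whereas MER11A rose by 2.06 ± 0.34 (adjusted p = 0.000397, edgeR) and MER11B by 1.19 ± 0.38 (adjusted p = 0.0261, edgeR). The rises depended on the scaling: with library sizes from TE counts in place of gene counts, which moved the median subfamily from 0.68 to -1.02, MER11A differed by 0.29 (adjusted p = 0.416, edgeR) and MER11B by -0.56, while the falls of the other 3 held. Among single integrants 9 of 88 were called (2 higher, 7 lower), against 5.58% of all 46118 tested (3.82% higher and 1.76% lower). DESeq2 called 0 of these members. With exons of all GENCODE genes 4 were called, and the proviruses chr4:4043850-4050887, chr8:7010302-7017357 and chr8:12388514-12395551 and the LTRs on chromosomes 21 and 22 were left out. In the same libraries the 3 extraembryonic markers (CGA, CGB5 and KRT7) summed to 35.8 and 94.8 CPM in foregut against at most 0.186 CPM in endoderm, nearly all of it KRT7, while the 4 primitive streak markers fell from between 1375 and 1701 CPM to at most 5.98 CPM, and the part of cell composition in these changes was not tested.

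The 4 MER11C proviruses on chromosomes 4 and 8 were all among the falls, with 32 and 28 foregut reads at chr4:4043850-4050887, 0 and 15 at chr8:7010302-7017357, and none at chr8:12388514-12395551 and chr8:7985163-7992200. The other falls were the MER11C LTRs chr21:47395550-47396620 and chr8:12340362-12341426, with no foregut read, and the MER11D provirus chr11:92676735-92683297. The latter lies in no annotated gene and held 72.5% of MER11D over all groups, with 21 and 25 reads in hESC, 43, 37 and 33 in endoderm without the sgRNA, 3, 20 and 25 with it, and 0 and 4 in foregut without it. In foregut without the sgRNA it held 11.9%, and chrX:134157882-134158752 held 88.1%, from 26 reads in 1 library. With this provirus left out, the MER11D mean of foregut was 0.928 times that of endoderm, both without the sgRNA, against 0.188 times with all integrants. The 2 LTRs of the provirus were 97.6% identical, the closest LTR pair among the proviruses compared.

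The rises were a MER11A and a MER11B LTR. The MER11A LTR chr22:23889088-23890083, on the plus strand at the end of the lncRNA gene PCAT14, of which an exon overlaps it, held 4 and 5 reads in hESC, 13, 20 and 10 in endoderm without the sgRNA and 410 and 314 in foregut without it. It rose by 3.86 ± 0.61 on the log2 scale from endoderm to foregut and made up 64.1% of MER11A in foregut without the sgRNA, against 4.08% in hESC. Without this LTR, the MER11A mean of foregut was 1.80 times that of endoderm, and with it 4.09 times. The MER11B LTR chr4:240701-241790, in the pseudogene ZNF876P, held 0, 5 and 1 reads in endoderm without the sgRNA and 68 and 41 in foregut (3.96 ± 1.08, adjusted p = 0.00658, edgeR). Other MER11B loci had foregut reads in both groups, such as chr3:20029267-20030330 in PP2D1 with 53 and 27 reads without the sgRNA and 15 and 47 with it.

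The sgRNA was designed on LTR5B and not on MER11, and the comparison asks whether MER11 loci moved when LTR5 was targeted. As a check, LTR5B was at 5.03 to 5.57 RPM in endoderm without the sgRNA and at 1.5 to 3.36 with it, and LTR5_Hs at 17.8 to 19.2 and 10.6 to 14.1, with no overlap of libraries, although neither sum passed the test (adjusted p = 0.460 and 0.762, edgeR). LTR5A was higher with the sgRNA, at 88.7 to 110 against 39.1 to 62.8. In foregut, LTR5B was at 12.4 and 9.29 RPM without the sgRNA and at 5.59 and 4.28 with it, whereas LTR5_Hs overlapped, at 9.10 and 8.75 without it and 4.43 and 10.9 with it (adjusted p = 0.998 for both sums, edgeR). Across the genome, 0 of 1043 subfamily sums were called in endoderm (59 at an unadjusted p under 0.05) and the 5 sums differed by between -0.61 and 0.46 on the log2 scale (adjusted p 0.888 to 0.989, edgeR). MER11C was at 102 ± 5.4 RPM with the sgRNA (SD, n = 3) and at 98.7 ± 15.0 without it (SD, n = 3), and HERVK11-int at 86.7 ± 6.8 and 85.8 ± 12.3. The counts of the 4 MER11C proviruses with the sgRNA overlapped those without it.

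One member integrant of 80 was called in endoderm, where 0.0285% of all 24559 were (0.0204% lower). This is the solo MER11C LTR chr6:32623524-32624592, on the minus strand outside any annotated gene, 310 bp from an LTR5_Hs at chr6:32624903-32625860 and 11568 bp from the start of HLA-DQB1, a class II gene of the major histocompatibility complex. Its counts were 54, 26 and 29 in endoderm without the sgRNA and 3, 6 and 2 with it, a log2 fold change of -3.02 ± 0.62 (adjusted p = 0.00809, edgeR). In hESC it held 10 and 3 reads, so it had risen by 2.79 ± 0.64 in endoderm without the sgRNA. The neighbouring LTR5_Hs went from 39, 52 and 26 reads to 2, 7 and 5, and HLA-DQB1 from 214, 157 and 165 CPM to 34.7, 52.3 and 36.4 CPM (-2.10 on the log2 scale, adjusted p = 0.0021, edgeR). In hESC, HLA-DQB1 was at 9.01 and 5.81 CPM. The call at this LTR was lost with DESeq2 (adjusted p = 0.425), with all 12 libraries in one fit (adjusted p = 0.653, edgeR), and without endoderm control 1, endoderm control 3 or sgRNA library 3 (adjusted p = 0.153, 0.0714 and 0.0971, edgeR), while the log2 fold change stayed between -3.28 and -2.67. Markers moved between the same groups: the 5 pluripotent genes summed to between 772 and 1043 CPM without the sgRNA and 510 and 705 CPM with it, and the 4 mesoderm genes to between 19.2 and 40.4 CPM and then 59.3 and 82.8 CPM. Their part in the result was not tested.

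In foregut, the MER11A sum was at 20.01 and 12.8 RPM without the sgRNA and at 4.58 and 3.17 with it, a log2 fold change of -2.03 ± 0.60 that missed the adjusted threshold (unadjusted p = 0.000657, adjusted p = 0.224, edgeR). None of the 5 sums was called, where 0.0976% of 1025 subfamily sums were (36 at an unadjusted p under 0.05). The other 4 had adjusted p of 0.998. With TE library sizes the MER11A fall passed, at -2.70 (adjusted p = 0.00655, edgeR). Without the LTR on chromosome 22, the foregut mean with the sgRNA was 0.658 times that without it, against 0.237 times with all integrants.

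That LTR was the one member of 61 called in foregut, where 0.00777% of 51499 integrants were (0.00388% lower). With 2 libraries a group and clumped counts, a missing call in foregut does not show that a member did not change. Its counts were 410 and 314 without the sgRNA and 0 and 0 with it, so the level fell from 10.5 RPM to the floor or below, and foregut without the sgRNA was at least 7.09-fold higher (adjusted p = 9.9e-09, edgeR's quasi-likelihood test). DESeq2 gave an adjusted p of 0.615 for it. With exons of all GENCODE genes, a setting chosen after seeing the data, a PCAT14 exon removed this LTR and no member was called. In endoderm the LTR held 13, 20 and 10 reads without the sgRNA and 0, 3 and 1 with it, with no overlap but an adjusted p of 0.435 (edgeR). The fitted interaction between the sgRNA and the stage was -7.84 ± 1.79 on the log2 scale (adjusted p = 0.0395, edgeR), and this was the only one of 116 members for which it passed. The share of all integrants that passed is not given here, so this count says nothing of members against other integrants. The interaction rests on a group with 0 reads: the fitted fall in endoderm was 8.28-fold, so at the floor the fall in foregut need not be the larger one. The call of the interaction was lost when foregut counts were divided by their clump size, a setting chosen after seeing the data (-7.02, adjusted p = 0.9998, edgeR), whereas the call in foregut was kept (adjusted p = 0.00133, edgeR).

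**Figure D5:**
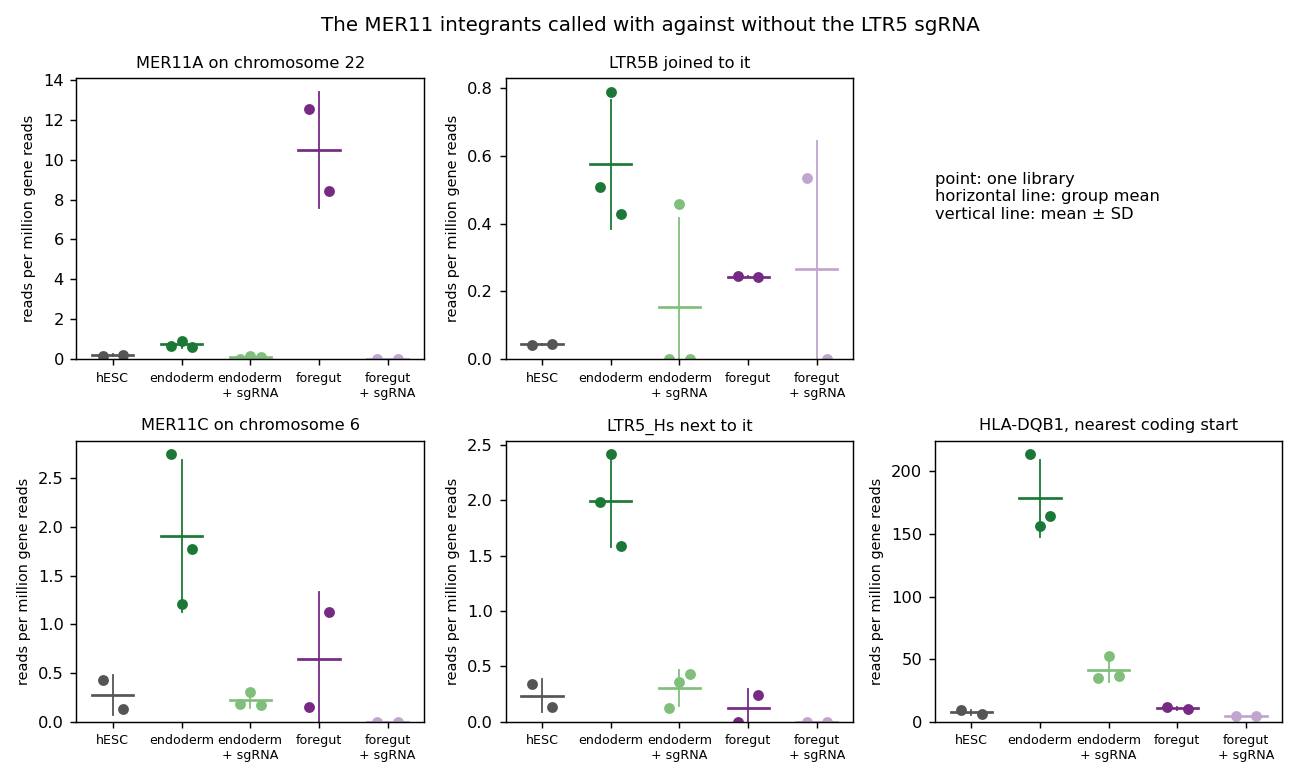
RPM in each library for the MER11 integrants called with against without the sgRNA, with group means. The MER11C LTR on chromosome 6 is lower in all 3 endoderm libraries with the sgRNA, and the MER11A LTR on chromosome 22 has 0 reads in both foregut libraries with it.

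Both loci adjoin an LTR5. The LTR on chromosome 22 begins at the base after the HERVK-int and LTR5B element chr22:23888493-23889087, whose counts were 10, 17 and 7 in endoderm without the sgRNA, 0, 9 and 0 with it, 8 and 9 in foregut without it and 17 and 0 with it. The integrant in CD48 abuts an LTR5 in the same way, at chr1:160660575-160661543, which held 0 to 2 reads in every library. The junctions are shown on the plus strand of GRCh37, 5′ to 3′, because at both a member integrant meets an LTR5 without a base between them. Capitals mark the side of the member. On chromosome 1 the name of the member lists MER11C first and HERVK11-int last. If names follow the coordinates, the capitals there are internal sequence and not LTR.
chr22:23889028-23889147, LTR5B element then MER11A: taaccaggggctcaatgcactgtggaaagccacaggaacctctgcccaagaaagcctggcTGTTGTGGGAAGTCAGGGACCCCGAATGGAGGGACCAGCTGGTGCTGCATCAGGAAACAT
chr1:160660515-160660634, MER11C and internal sequence then LTR5: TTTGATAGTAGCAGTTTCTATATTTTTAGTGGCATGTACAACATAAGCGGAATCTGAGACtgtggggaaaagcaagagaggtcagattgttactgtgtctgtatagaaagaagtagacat
In contrast to the LTR on chromosome 22, the integrant in CD48 did not move with the sgRNA beyond the spread (-0.22 ± 0.38, adjusted p = 0.83, edgeR), at 86, 159 and 93 reads with it and 115, 219 and 146 without it.

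Members within 10 kb of an LTR5 numbered 41, of which 11 had a read. In endoderm, with exon-overlapping members included, 4 of them passed the filter and all 4 had log2 fold changes under 0 with the sgRNA (median -1.96), against 35 of 91 other members (median 0.22). In foregut all 5 that passed were under 0, against 42 of 71 others, but 4 of the 5 had no read with the sgRNA and passed only through the libraries without it, which fixed their sign, and 2 of these had reads in 1 library alone. These are counts over few loci, and 3 of the 4 in endoderm are those just described. The remaining one, chr4:240701-241790, held 0, 5 and 1 reads in endoderm without the sgRNA and 0, 0 and 2 with it. It passed the filter only through 1 library without the sgRNA, which favoured a fold change under 0. The called LTRs among the 4 had already been described as lower with the sgRNA. The tally in endoderm therefore does not test whether members near an LTR5 fell more often than others.

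Position in genes went with detection. Of 548 members in an intron of a single coding gene, 32.5% lay on the strand of the gene, and of the 86 of these with reads 59.3% did. Whether reads of same-strand members belong to the transcript of the gene was not tested. A transcript annotated in GENCODE ended inside 0.994% of the 2213 members without reads (22), 10.0% of the 310 with reads (31) and 20.4% of the 103 with at least 10 reads (21). Transcript starts were rarer, at 6, 5 and 4 members. The annotation rests in part on RNA from many tissues and was not made from these libraries.

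Coding genes with a start within 50 kb of a member were called between stages at shares near those of all coding genes. Against hESC, 276 of 969 such genes (28.5%) were called in endoderm, compared with 29.2% of all coding genes, and 343 of 984 (34.9%) were called in foregut against endoderm, compared with 33.9%. With the sgRNA, 2 of 956 (0.209%, against 0.0466% of all coding genes) were called in endoderm, both lower (0.0399% of all). In foregut 5 of 940 were called (0.532%, against 0.191%), 4 lower and 1 higher (0.145% and 0.0462% of all). The lower genes in endoderm were HLA-DQB1 and SERPINB9, a granzyme inhibitor (-1.79, adjusted p = 0.037, edgeR). The MER11C LTR near SERPINB9 lies 786 bp from an LTR5B. In foregut the lower genes were RTL8C, RTL8B, TMEM141 and LGALS3, of which LGALS3 had overlapping libraries (96.7 and 31.2 CPM without the sgRNA, 3.64 and 33.9 CPM with it). The member near RTL8C and RTL8B lies 5622 bp from an LTR5_Hs and the one near TMEM141 519 bp from an LTR5B. RTL8C, a gene derived from a retrotransposon, went from 138 and 175 to 17.2 and 12.7 CPM.

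The higher gene in foregut with the sgRNA was BAAT, a bile acid conjugating enzyme, whose start is covered by a MER11A LTR, chr9:104147141-104148282. BAAT was at 0.98 and 1.10 CPM without the sgRNA and at 87.2 and 103 CPM with it (6.52 on the log2 scale). The LTR held 0 and 19 reads without the sgRNA and none with it. As the LTR and BAAT share exon sequence, their reads cannot be told apart with certainty. A count of 0 for the LTR thus does not show that no BAAT transcript began in it. The MER11A LTR chr2:71671564-71672723, 7968 bp from the start of DYSF, a muscle membrane repair gene, held 19 and 8 reads in foregut without the sgRNA and none in any other library. Near IQCG, another gene the study names, the MER11A integrants chr3:197694105-197695057 and chr3:197695347-197695558 held no read in any library. Of the factors that silence TEs, TRIM28 was at 1169 and 1250 CPM in hESC and at 631, 798 and 722 CPM in endoderm without the sgRNA, and SETDB1 at 42.3 and 45.7 and then at 62.1, 65.5 and 56.8 CPM. ZNF468, a KRAB zinc finger gene, was at 18.0, 15.6 and 10.4 CPM in endoderm without the sgRNA and at 6.30, 9.58 and 9.24 CPM with it, and it was not called.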

How the data were processed

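Bulk RNA-seq of H9 cells was analysed in 12 libraries; the single-nucleus data of the series were not used here. The authors prepared stranded polyA libraries, used HISAT2 to align reads to hg19 (GRCh37), and assigned those that mapped uniquely with featureCounts to 1 annotation holding both genes and TEs, whose fragments they had merged. Deposited tables give raw read counts for each gene and each TE integrant, and whether counting used the strand is not given in the sources used here. Reads of a TE and of an overlapping gene, or of an antisense pair, may thus be mixed.

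Members were the integrants with MER11A, MER11B, MER11C, MER11D or HERVK11-int in their names. The members and the gene lists were chosen with earlier results of these data known. Levels (RPM) are reads per 1000000 gene reads. Counts were tested with the quasi-likelihood test of edgeR 4.0.16 in R 4.3.3, with gene library sizes and TMM factors, where 1 library held at least 3 reads, and 2-sided p-values were adjusted by the Benjamini-Hochberg method over all features of a comparison. Subfamily sums were called at an adjusted p below 0.05, and integrants if they also changed more than 2-fold. Integrants overlapping an exon of a gene ID in the deposited tables (72 members) entered only a second fit. Alternatives used limma 3.58.1 (voom), DESeq2 1.42.0, other library sizes, filters, blocks and gene annotations, and leaving out each library. The tests were tried on simulated data. Integrants were named by a rule: the 4 leading each subfamily over all groups, and in each comparison those called, at most 8 by adjusted p. Other integrants called against hESC, and those at BAAT, DYSF and IQCG, were named after their values were seen. Named genes were hosts or neighbours of these, genes called within 50 kb, marker lists, and genes the study names. A result that the rules name is described once.

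Genes and exons came from GENCODE v44lift37, the strand of an integrant from blastn 2.17.0, sequences from GRCh37 with samtools 1.23.1, and overlaps from bedtools 2.31.1. The sequences of the LTR windows are not reported here. Gene reads per library, 11583063 to 37152434, set the precision, and floors for counts of 0 cover counting error only.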

Additional observations from a re-analysis of the deposited data

Results flagged for a closer look

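The MER11A LTR chr22:23889088-23890083 passed the test of a different sgRNA effect in foregut and endoderm. The fitted difference was -7.84 on the log2 scale (adjusted p = 0.0395, interaction in edgeR's quasi-likelihood test), and the LTR was lower with the sgRNA in both tissues: 410 and 314 reads against 0 and 0 in foregut, and 13, 20 and 10 against 0, 3 and 1 in endoderm. Because both foregut libraries with the sgRNA held no read, the size of the difference depends on the prior count of the fit. At the floor of 78 reads foregut fell at least 7.09-fold, against a fitted 8.28-fold in endoderm, so there may be no difference, and with foregut counts divided by their clump size it no longer passed. It was the only member integrant and no subfamily sum joined it, and the share over all integrants is not given here.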

How the results depend on the processing

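The direction and the call of the MER11C and HERVK11-int rises in endoderm held under every alternative other than the use of single names only. With single names only HERVK11-int changed sign, whereas MER11C was still higher, at 13.1 RPM in endoderm without the sgRNA against 6.53 in hESC. The numbers of calls were less stable, and the cause was not tested. Against hESC, 3 subfamilies called became 1 with single names only and 2 without any one library. Member integrants called, 13, became 2 with all 12 libraries in one fit and 8 with exons of all GENCODE genes, an alternative chosen after seeing the data, and 6 to 12 with a library left out. For endoderm with the sgRNA, the 1 integrant called became 0 with DESeq2 and with all 12 libraries in one fit, and 0 to 1 with a library left out. For foregut with the sgRNA, 0 subfamilies became 1 with TE library sizes and with exon-overlapping integrants left out, and 0 to 1 with a library left out. The 1 integrant called there became 0 with DESeq2 and 0 with exons of all GENCODE genes, since a PCAT14 exon removes it, and stayed 1 with each library left out. For foregut against endoderm, 5 subfamilies became 3 with TE library sizes and with all 12 libraries, 2 with single names only, and 3 to 5 with a library left out. The 9 integrants became 0 with DESeq2, 21 with TE library sizes, 4 with all GENCODE exons and 7 to 36 with a library left out (27 without foregut control 1 and 36 without foregut control 2). Of genes near members, 0.209% called in endoderm with the sgRNA became 0.109% within 100 kb, and 0.532% in foregut became 1.01% within 20 kb and 0.272% within 100 kb. Signs turned for MER11D (-0.86) and HERVK11-int (-2.74) against hESC and MER11D in foregut (1.74) with single names only, and for MER11B in foregut (-0.56) with TE library sizes. With foregut counts divided by their clump size, chosen after seeing the data, the interaction at chr22:23889088-23890083 was -7.02 and no longer passed (adjusted p = 0.9998).

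The labels do not say that a replicate number marks a shared culture or day, so the samples were not treated as paired. Libraries with the same number correlated at 0.025 and 0.046 (hESC with endoderm), -0.083 to -0.019 (endoderm with and without the sgRNA) and -0.225 (foregut), and at 0.210 and 0.171 (foregut with endoderm, both without the sgRNA). With the replicate block, member calls went from 13 to 6 against hESC and from 9 to 5 in foregut against endoderm, and subfamily calls for foregut with the sgRNA from 0 to 1. With crossed numbers, chosen after seeing the data, that count was 0 and member calls stayed at 1. Over all alternatives, 113 group results kept their call or count, 31 moved and 1 weakened, and of single results 2194 kept theirs, 34 gained and 111 lost a call, and 4 changed sign. Depth limits all loci with few reads, and the clumped foregut counts limit it further.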
